A study of Homo sapiens with 12 samples.

Results

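RNA was sequenced from 12 libraries of RD cells carrying 1 of 2 doxycycline-inducible hairpins against NT5E, and the results below concern how far the doxycycline (Dox) responses of the 2 hairpin lines differ. RD is a long-established human cell line of rhabdomyosarcoma without a PAX fusion, a cancer in which cells resembling muscle precursors fail to complete differentiation. NT5E encodes CD73, a cell-surface enzyme that converts extracellular AMP to adenosine. The 4 groups were cells with the construct titled ish without Dox, ish with Dox, ish2 without Dox and ish2 with Dox, each with 3 libraries. Dox was given at 10 ng/mL for 96 h. All 12 libraries of the series entered, because the contrast needs all 4 groups: it is the Dox effect in ish2 minus the Dox effect in ish, on the log2 scale. A positive value means that the effect in ish2 lay above that in ish, and a negative value that it lay below. Every library came from cells that carry a hairpin against NT5E, and the groups without Dox carry the uninduced construct. No library of a non-targeting hairpin was analysed here. The sources used here give neither the hairpin sequences nor whether each line is a clone or a pool. The labels do not tell whether replicates were grown separately, so p-values measure only the spread between these libraries, which may be technical.

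Skeletal muscle forms when MYOD1 and related basic helix-loop-helix factors, with MEF2 partners, activate MYOG and then the genes of the contractile apparatus, while the cells leave the division cycle. These factors bind short E-box sequences in the promoters and enhancers of muscle genes. Growth-factor signalling through RAS and ERK opposes that programme and feeds the immediate early genes, which include the AP-1 factors. NF-kB and interferon signalling control chemokines, cytokines and antiviral genes through sites of their own. RD cells carry an activating RAS mutation and are often used to study how muscle differentiation is held back.

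The promoters of 6 genes are shown because they come from the groups of genes that parted most between the constructs, and because the search for motifs below turns on them. Each is the 250 bases before the RefSeq start site, 5' to 3', on build GRCh38.p14, with motif matches in capitals. MYOG, TNNT2 and MYBPH rose in ish and fell in ish2. MYOG, the muscle differentiation factor, is at chr1:203086013-203086262 on the minus strand. TNNT2, the troponin T of heart and embryonic muscle, is at chr1:201377681-201377930 on the minus strand. MYBPH, a myosin-binding protein of skeletal muscle, is at chr1:203175827-203176076 on the minus strand.
MYOG: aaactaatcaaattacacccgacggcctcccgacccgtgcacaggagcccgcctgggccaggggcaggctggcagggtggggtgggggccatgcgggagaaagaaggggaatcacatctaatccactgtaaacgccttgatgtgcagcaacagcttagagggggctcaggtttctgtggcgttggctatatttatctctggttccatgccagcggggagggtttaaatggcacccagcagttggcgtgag
TNNT2: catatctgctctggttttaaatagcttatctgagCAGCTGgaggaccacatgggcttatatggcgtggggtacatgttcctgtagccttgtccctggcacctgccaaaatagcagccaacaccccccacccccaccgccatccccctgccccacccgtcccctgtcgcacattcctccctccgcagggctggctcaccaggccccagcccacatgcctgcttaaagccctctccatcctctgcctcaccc
MYBPH: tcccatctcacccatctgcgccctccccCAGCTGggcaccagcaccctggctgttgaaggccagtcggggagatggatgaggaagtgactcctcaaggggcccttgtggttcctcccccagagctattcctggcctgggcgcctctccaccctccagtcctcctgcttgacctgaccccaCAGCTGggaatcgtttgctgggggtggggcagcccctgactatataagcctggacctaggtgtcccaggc
The capitals in TNNT2 and MYBPH are the E-box CAGCTG, which reads the same on both strands. TNNT2 held it from base -216 to -211 and again after the start site, from base 43 to 48. MYBPH held it from -222 to -217 and from -70 to -65. MYOG held none of the 5 motifs in the exact letters searched. The MEF2 letters had fixed bases at both ends, so MEF2 sites of other forms were not sought. Whether MYOG holds such a site was not tested.

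CXCL8, CXCL1 and EMP1 stand for the genes that fell in ish, with a rise in ish2 for CXCL1 and EMP1. CXCL8, the neutrophil chemokine, is at chr4:73740319-73740568 on the plus strand. CXCL1, a related chemokine, is at chr4:73869143-73869392 on the plus strand. EMP1, an epithelial membrane protein, is at chr12:13196476-13196725 on the plus strand.
CXCL8: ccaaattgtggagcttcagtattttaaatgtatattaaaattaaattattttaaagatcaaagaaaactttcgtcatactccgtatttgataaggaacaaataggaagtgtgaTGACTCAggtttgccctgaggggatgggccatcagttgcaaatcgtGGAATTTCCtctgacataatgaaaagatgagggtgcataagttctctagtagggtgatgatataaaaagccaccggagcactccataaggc
CXCL1: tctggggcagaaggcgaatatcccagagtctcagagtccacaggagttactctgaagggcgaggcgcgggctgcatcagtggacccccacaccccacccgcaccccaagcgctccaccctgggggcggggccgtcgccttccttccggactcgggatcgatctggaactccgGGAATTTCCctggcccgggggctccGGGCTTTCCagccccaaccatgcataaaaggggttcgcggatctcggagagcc
EMP1: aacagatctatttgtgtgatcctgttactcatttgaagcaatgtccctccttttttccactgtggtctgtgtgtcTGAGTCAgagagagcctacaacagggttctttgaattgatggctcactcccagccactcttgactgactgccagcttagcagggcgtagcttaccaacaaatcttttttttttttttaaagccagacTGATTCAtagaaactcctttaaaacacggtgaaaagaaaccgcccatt
The capitals mark GGNNTTTCC, a form of the kB site bound by NF-kB, at -91 to -83 in CXCL8 and at -78 to -70 and -53 to -45 in CXCL1. They mark TGANTCA, a loose form of the AP-1 site that allows any middle base. It matched at -137 to -131 in CXCL8 and at -175 to -169 and -48 to -42 in EMP1, the last as TGATTCA. MYBPH, CXCL1 and EMP1 were added to this set after their matches were seen.

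The libraries held 26566603 to 32692207 gene counts each, and 15206 of 26485 genes in the table passed the filter on low counts and were tested. The ish2 libraries without Dox were the shallowest group (26566603 to 27789289 counts) and the ish libraries with Dox reached the highest total. The reads counted as ambiguous between genes were 2.592% to 2.646% in ish without Dox and 2.075% to 2.097% with Dox, against 2.568% to 2.578% and 2.337% to 2.375% in ish2. Reads not aligned uniquely were highest in ish without Dox replicate 3, at 9.571%, in a range over all libraries of 7.15% to 9.571%. The part of these shares in the results was not tested. The biological coefficient of variation was 2.44%, so small differences pass the test.

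The targeted gene checks the labels. NT5E (chromosome 6, 85449584 to 85495791, plus strand of GRCh38) stood at 14.9, 17.96 and 17.3 CPM (counts scaled to library size) in the ish libraries without Dox and at 1.94, 1.23 and 1.54 with Dox. Its ish2 levels were 24.1, 23.5 and 22.1 without Dox and 14.5, 15.2 and 14.1 with Dox. It was lower with Dox in both constructs, with no overlap, and the ish2 libraries with Dox lay near the ish libraries without it. The Dox effects were -3.41 and -0.67, and their difference was 2.74 ± 0.13 (SE; edgeR quasi-likelihood test, adjusted p = 2.91e-19). An exact two-sided permutation of the 3 against 3 libraries gave p = 0.1 within each construct, the smallest it can give. NT5E therefore belongs to the genes that moved the same way in both constructs and further in ish.

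The Dox responses of the constructs differed at most tested genes. The interaction was called, at an adjusted p under 0.05 by edgeR, for 11039 of 15206 genes (72.6%), with the ish2 effect above the ish effect at 5688 (37.4%) and below it at 5351 (35.2%). At least a 2-fold difference between the effects was reached by 3247 called genes (21.4%), 1957 above (12.9%) and 1290 below (8.48%). Taken separately, Dox changed 11945 genes in ish (78.6%), with 39.1% of all tested genes higher and 39.5% lower, and 9883 in ish2 (65.0%), with 33.9% higher and 31.1% lower.

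Genes that moved in opposite directions made up 3971 of the tested genes (26.1%). Of these, 1831 (12%) rose in ish and fell in ish2, and 2140 (14.1%) fell in ish and rose in ish2. All 3971 were also called in the interaction. When each change had to reach 2-fold, 284 genes remained (1.87%), of which 103 (0.677%) rose in ish and fell in ish2 and 181 (1.19%) did the reverse. These classes were chosen on the measured effects, so their values are descriptions and carry no test of their own. Among the other genes called in the interaction, 1951 (12.8%) moved the same way with the larger change in ish and 699 (4.6%) with the larger change in ish2. A further 3043 (20.0%) were called in ish only and 1274 (8.38%) in ish2 only, and 101 (0.664%) were called in neither construct alone.

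**Figure D1:**
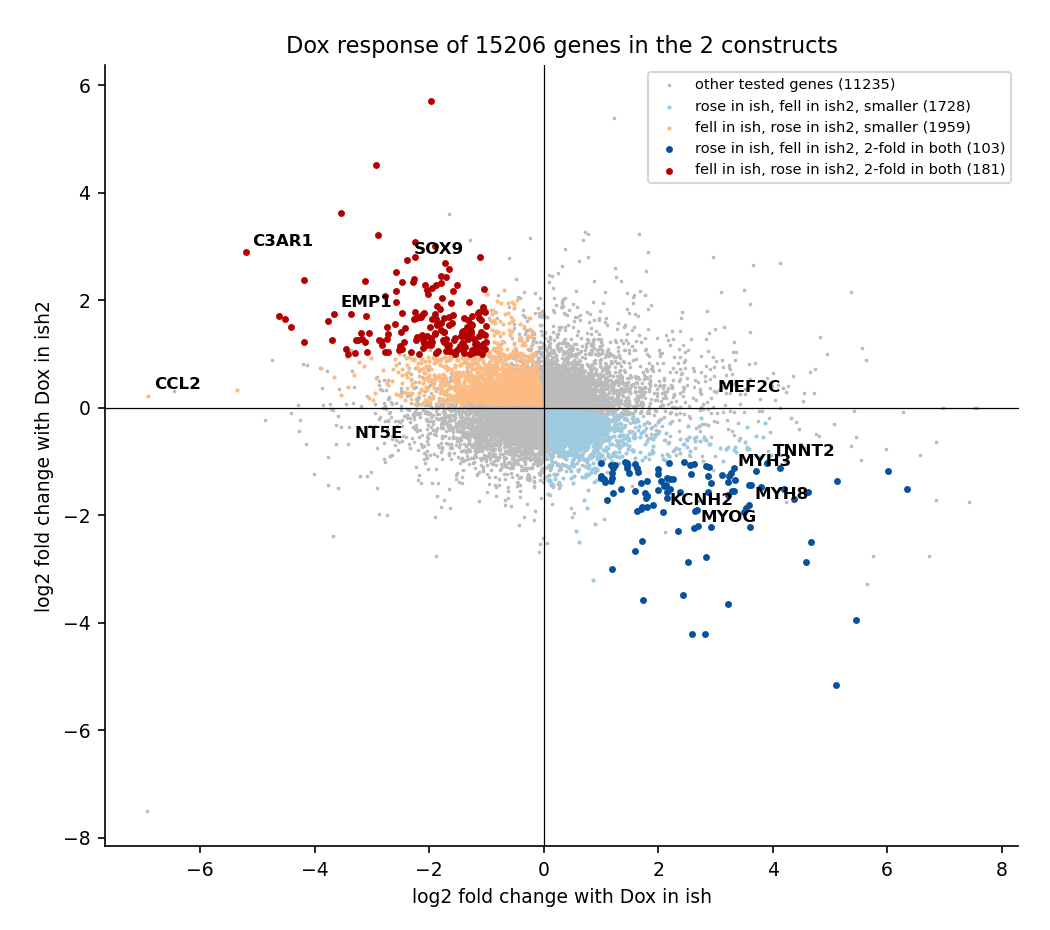
Dox response of each of the 15206 tested genes, as log2 fold change with Dox in ish (x axis) against ish2 (y axis). Each point is a gene; light and dark colours mark genes called in opposite directions, the dark ones at 2-fold or more in both (103 in the lower right and 181 in the upper left). EMP1 and SOX9 lie at the upper left, MYH8, MYOG and KCNH2 at the lower right, and NT5E below 0 on both axes.

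Of the 8220 genes called in both constructs, 4249 (51.7%) moved the same way and 3971 (48.3%) oppositely. The opposite genes were 33.2% of the genes called in ish and 40.2% of those called in ish2. Among genes changed at least 1.5-fold in both, 56.7% (776 of 1369) were opposite, at 2-fold 67.8% (284 of 419), at 3-fold 76.3% (87 of 114) and at 4-fold 84.6% (33 of 39). The share that moved oppositely was thus higher with each larger minimum. The change in ish was the larger one at 1167 of the 1831 genes that rose in ish and fell in ish2 (63.7%) and at 1508 of the 2140 others (70.5%).

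Genes near the 2-fold limit show what it separates. SLC24A3, a sodium, potassium and calcium exchanger, was just inside with effects of 2.46 in ish and -1.004 in ish2, and SMIM5 was just outside with 1.20 and -0.99. On the reverse side CTGF, the connective tissue growth factor (now CCN2), was just inside with -2.17 and 1.00. VAV3, a guanine nucleotide exchange factor, was just outside with -2.52 and 0.996. Genes of the 2-fold classes were less abundant than most: the median of their mean CPM was 3.28 for the 103 and 2.99 for the 181, against 26.3 for all tested genes. The full classes of 1831 and 2140 had medians of 46.96 and 34.17 CPM.

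The lines started close to each other at these genes. Since the interaction equals the ish2 minus ish difference with Dox less the same difference without Dox, the 2 differences can be set side by side, and they share no library. Over all tested genes the lines differed at 26.1% without Dox and at 81.3% with Dox, and their median difference without Dox was -0.004 (log2, ish2 minus ish). The median difference between the lines at the 103 genes that rose in ish and fell in ish2 was -0.12 (log2, ish2 minus ish) without Dox and -4.00 with Dox. Without Dox 101 of the 103 were within 2-fold between the lines, and with Dox all 103 were at least 2-fold lower in ish2. In both classes, a gene that starts within 2-fold must end at least 2-fold apart, because each change was chosen to reach 2-fold. The separation with Dox is therefore no separate result. For the 181 genes of the reverse class the medians were -0.09 without Dox and 3.26 with Dox. Of these, 171 were within 2-fold without Dox, 8 were apart by more in the direction opposite to the later difference and 2 in the same direction. How many of all tested genes were within 2-fold without Dox is not given, so the close start is not shown to be particular to these classes. The 3 libraries with Dox did not overlap the 3 without it, in either construct, at 97 of the 103 genes and 171 of the 181. In the classes without a minimum fold it was 1711 of 1831 and 2004 of 2140. All these genes were chosen as called in both constructs, so little overlap was built in and marks nothing particular to them. The share over all tested genes is not given here.

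**Figure D2:**
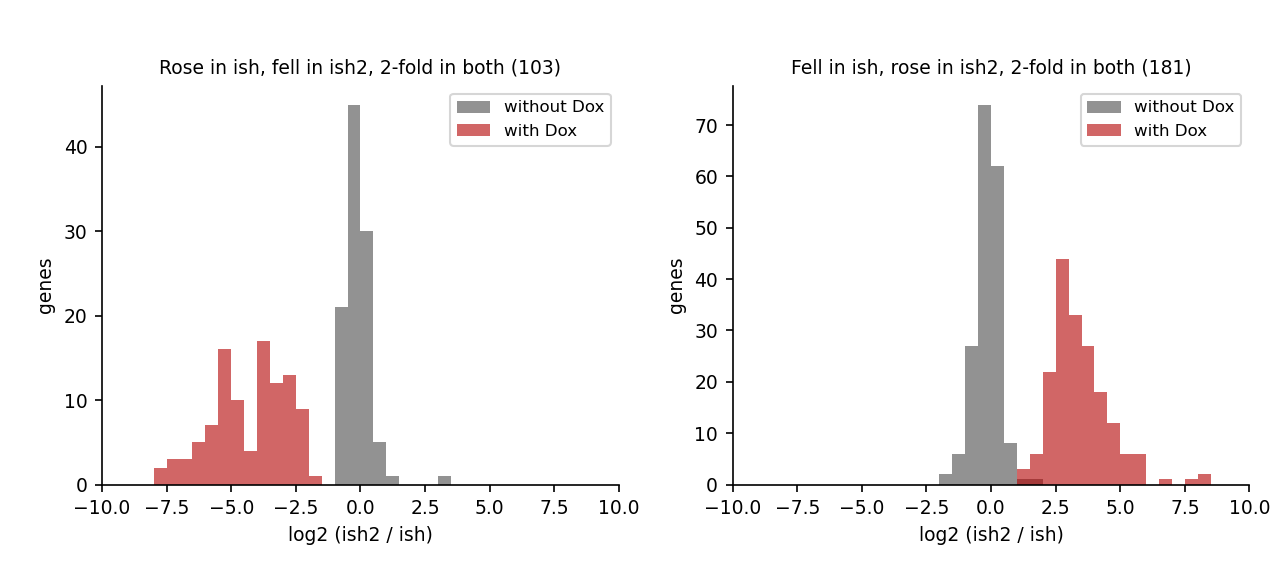
Difference between the lines, as log2 (ish2 / ish), at the genes that moved oppositely by at least 2-fold in both constructs: 103 that rose in ish and fell in ish2 (left) and 181 that did the reverse (right). Bars count genes, grey without Dox and red with Dox. The grey bars centre near 0 (medians -0.12 and -0.09) and the red bars at -4.00 and 3.26. The distance between grey and red bars follows from how the genes were chosen.

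Genes of the contractile apparatus moved apart, with the lowest median interaction of the 26 lists. Of 66 genes for sarcomere and contraction, 58 were tested. The ish2 effect was below the ish effect at 52 of them (89.7%, beside 35.2% of all tested genes) and above it at 2 (3.45%, beside 37.4%). Of the 58, 38 (65.5%) rose in ish and fell in ish2, beside 12% of all tested genes, and none did the reverse. The median effect was 2.28 in ish and -0.53 in ish2, and the median interaction was -2.80, beside 0.01 for all tested genes. In bulk RNA, a change in the number of cells of a kind and a change in RNA per cell cannot be told apart.

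MYH8, the perinatal myosin heavy chain (chromosome 17, 10390322 to 10421950, minus strand), stood at 6.32, 7.12 and 7.02 CPM in ish without Dox and at 85.3, 78.1 and 81.9 with Dox. Levels in ish2 were 7.51, 8.52 and 9.80 without Dox and 2.54, 2.19 and 2.59 with Dox. The 6 libraries without Dox were close, and the 2 groups with Dox lay on either side of them without overlap. The interaction was -5.40 ± 0.13 (edgeR adjusted p = 1.52e-28), from effects of 3.58 in ish and -1.81 in ish2. MYH3, the embryonic myosin, went from 74.8, 62.3 and 68.5 to 686, 626 and 678 CPM in ish. In ish2 it went from 55.5, 56.4 and 58.9 to 24.5, 24.2 and 25.2. Its interaction was -4.48 ± 0.09, so the 2 developmental myosins were split alike. The myosin heavy chain genes are near-identical neighbours, and an antisense RNA gene overlaps their cluster, so how reads were shared between them is uncertain.

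TNNT2 (chromosome 1, 201359008 to 201377762, minus strand) stood at 43.9, 36.5 and 41.0 CPM in ish without Dox and at 629, 574 and 615 with Dox. The ish2 libraries were at 38.4, 39.6 and 45.6 without Dox and at 21.5, 17.8 and 21.4 with Dox. The rise in ish was 14.96-fold and the fall in ish2 2.03-fold, and no groups overlapped except the 2 without Dox. The interaction was -4.92 ± 0.14 (edgeR adjusted p = 3.06e-10). MYL4, the embryonic and atrial light chain, rose in ish from 8.46, 9.29 and 8.63 to 101.0, 100.5 and 103 CPM. In ish2 it fell from 9.18, 7.47 and 9.26 to 2.64, 2.45 and 2.04. MYBPH was more even between the constructs, with a 5.11-fold rise in ish and a 4.88-fold fall in ish2. It stood at 23.2, 19.6 and 24.4 CPM and then 120.4, 109 and 115 in ish, and at 11.96, 13.4 and 13.01 and then 2.30, 2.71 and 2.84 in ish2. MYBPH differed between the lines already without Dox, by -0.81 (log2, ish2 minus ish).

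Other parts of the sarcomere followed. UNC45B, the chaperone that folds myosin, had effects of 3.12 and -1.26, and ACTN2, the actinin of the Z-disc, 3.41 and -0.60. TPM2, the beta-tropomyosin, went from 398 to 431 CPM in ish to 1384 to 1448 with Dox, and in ish2 from 405 to 433 down to 259.7 to 266. OBSL1, a cytoskeletal relative of obscurin, had effects of 1.46 and -0.51. TTN, which encodes the giant protein titin, had an interaction of -4.37. The other 20 tested members were outside this class. Of these, 7 rose in both constructs and more in ish, among them LMOD3, which nucleates actin filaments (3.01 and 0.30), MYBPC2, a fast myosin-binding protein (2.10 and 0.55), and DES, which encodes desmin (0.82 and 0.65). A further 8 were called in ish only, and 4 were not called in the interaction. The ish2 effect was above at TNNI3, the cardiac troponin I, which is among those 8 (-1.96 and 0.01), and at TPM3, a tropomyosin that fell in both (-0.62 and -0.17).

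**Figure D3:**
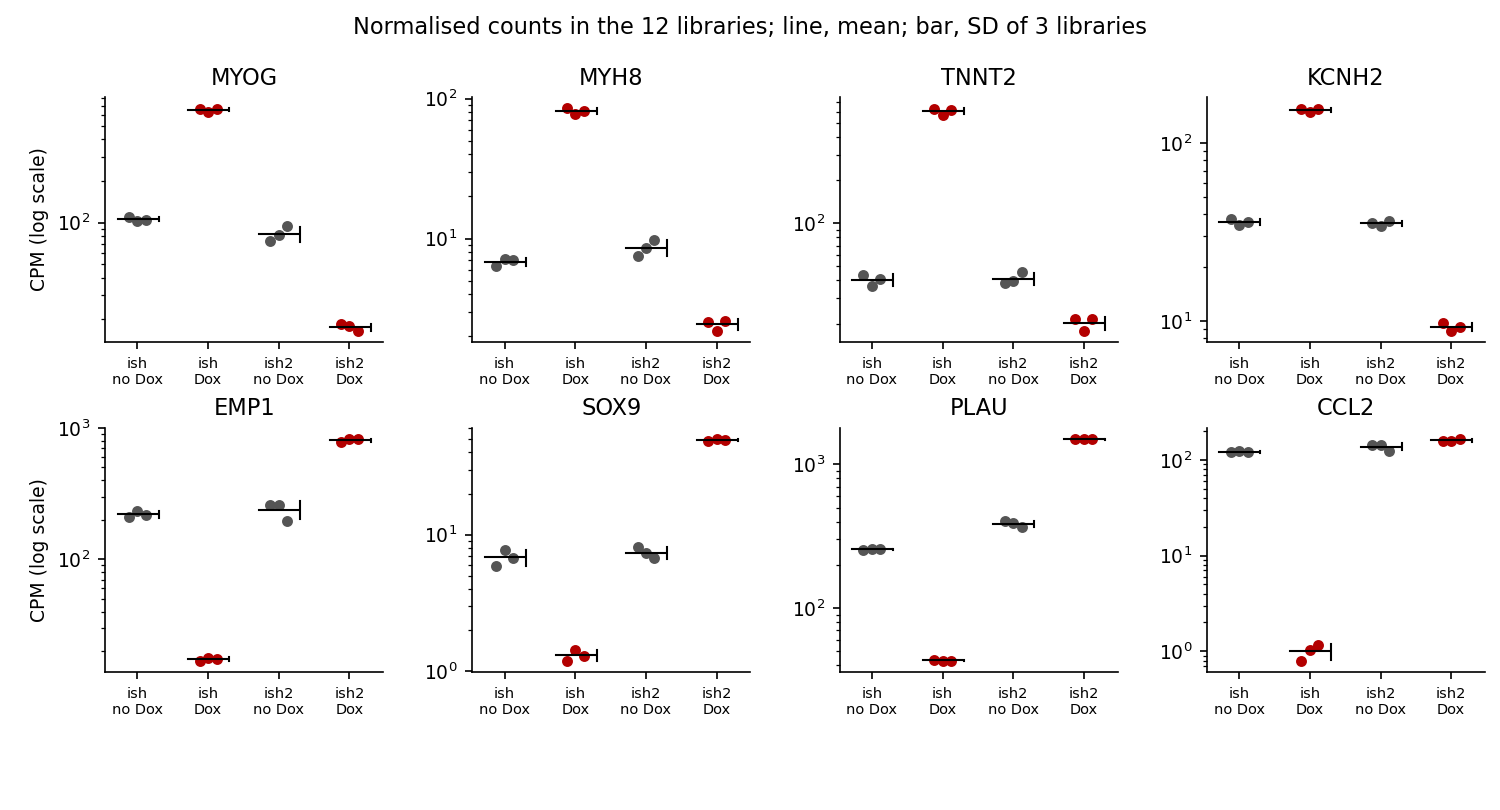
CPM of 8 genes in each of the 12 libraries, on log axes that differ between panels. Points are libraries, grey without Dox and red with Dox, the line is the group mean and the bar its SD (n = 3). In the upper panels ish with Dox is the highest group and ish2 with Dox the lowest, with MYOG at 654 against 17.6 CPM on average; in the lower panels ish with Dox is the lowest group and ish2 with Dox the highest, although for CCL2 the groups of ish2 differ little.

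Genes of calcium handling, the neuromuscular junction and cell fusion split in the same direction. Of 44 tested members, the ish2 effect was below the ish effect at 33 (75.0%, beside 35.2% of all tested genes) and above at 5 (11.4%, beside 37.4%). Of the 44, 23 (52.3%, beside 12%) rose in ish and fell in ish2 and none did the reverse, with a median interaction of -1.59. STAC3, an adaptor of excitation-contraction coupling, stood at 308 to 324 CPM in ish and at 831 to 893 with Dox, and in ish2 at 305 to 309 and then 205 to 214. CHRNG, the fetal subunit of the acetylcholine receptor, rose 2.37-fold in ish and fell 1.78-fold in ish2. CDH15, the cadherin of muscle cells, rose 2.00-fold and fell 1.49-fold. For PYGM, the muscle glycogen phosphorylase, the fall in ish2 was the larger change: it stood at 53.0, 56.2 and 55.1 and then 90.5, 91.6 and 87.7 CPM in ish, and at 47.1, 48.0 and 50.1 and then 23.2, 22.8 and 22.6 in ish2. ATP2A1, the calcium pump of fast muscle, was similar in this, with 0.56 in ish and -2.28 in ish2. CASQ2, the calsequestrin of cardiac and slow muscle, had 1 to 3 reads in each ish2 library with Dox, so no fold is given. Its levels were 0.155 to 0.263 CPM rising to 4.99 to 5.36 in ish, and 0.181 to 0.542 falling to 0.0343 to 0.0959 in ish2. TMEM8C, the older symbol of the fusion protein myomaker, had effects of 2.55 and -1.06.

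The regulators of muscle did not move as a block. Of 40 tested myogenic transcription factors, 24 had the ish2 effect below (60.0%, beside 35.2% of all tested genes) and 12 above (30.0%, beside 37.4%). Of the 40, 7 (17.5%, beside 12%) rose in ish and fell in ish2 while 7 (17.5%, beside 14.1%) did the reverse. MYOG (chromosome 1, 203083132 to 203086036, minus strand) stood at 110.4, 103 and 105 CPM in ish without Dox and at 663, 636 and 665 with Dox. In ish2 it stood at 73.4, 81.5 and 93.9 without Dox and at 18.5, 17.7 and 16.5 with Dox. No library with Dox overlapped one without it in either construct, and the ish2 minus ish difference with Dox was -5.22 on the log2 scale. The interaction was -4.87 ± 0.12 (edgeR adjusted p = 7.48e-11). MYOD1, which acts before MYOG, rose in both, from 107 to 115 up to 335 to 345 CPM in ish and from 130.0 to 139 up to 146 to 154 in ish2. MEF2C, a partner of both, rose 7.62-fold in ish and 1.13-fold in ish2. So MYOG moved oppositely while MYOD1 and MEF2C moved the same way by unequal amounts (interactions -1.42 ± 0.04 and -2.75 ± 0.05).

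The chondrogenic factor SOX9 was the reverse of MYOG. It stood at 5.89, 7.75 and 6.71 CPM in ish without Dox and at 1.18, 1.43 and 1.29 with Dox, and in ish2 at 8.16, 7.28 and 6.69 without Dox and at 48.4, 50.3 and 49.8 with Dox. The interaction was 5.13 ± 0.14 (edgeR adjusted p = 2.89e-27). BHLHE40, a repressor with roles in the clock and in hypoxia, fell 2.25-fold in ish and rose 2.23-fold in ish2. HEYL, a target of NOTCH signalling, rose 1.43-fold and fell 2.13-fold, whereas HES1 and HEY2, also NOTCH targets, had effects of -0.42 and 1.31, and of -0.47 and 2.00. PAX7, which marks muscle stem cells, had -0.003 in ish and -0.91 in ish2.

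Outside the lists, several genes went up in ish and down in ish2. KCNH2, the potassium channel known as hERG, stood at 37.7, 34.9 and 36.2 CPM in ish and at 156, 149.7 and 155 with Dox. Levels in ish2 were 35.8, 34.2 and 36.5 and then 9.80, 8.83 and 9.27. The lines were not called different without Dox (log2 difference -0.03, edgeR adjusted p = 0.659), and the interaction was -4.01 ± 0.06. SEPT4, a septin of the cytoskeleton (now SEPTIN4), rose 6.27-fold and fell 3.79-fold. GADD45G, a gene of growth arrest and stress, rose 11.3-fold and fell 3.81-fold. ATOH8, a basic helix-loop-helix factor, rose 3.30-fold and fell 5.59-fold, from 13.1 to 14.3 CPM to 2.11 to 2.84 in ish2. ITGB2, the beta-2 integrin subunit of leukocytes, went from 1.98 to 2.40 CPM to 15.3 to 15.9 in ish and from 1.05 to 1.52 to 0.0639 to 0.297 in ish2. GJA5, a connexin, rose in ish from 0.0659 to 0.128 CPM to 4.12 to 4.63. It had 1 to 3 reads per ish2 library without Dox and none with Dox, so no fold is given for ish2.

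Inflammatory genes moved the other way. Of 31 tested members of the NF-kB list, the ish2 effect was above the ish effect at 24 (77.4%, beside 37.4%) and below at 1 (3.23%, beside 35.2%). Of the 31, 18 (58.1%) fell in ish and rose in ish2, beside 14.1% of all tested genes, and none did the reverse. The median effects were -0.73 in ish and 0.71 in ish2. CCL2, the monocyte chemokine (chromosome 17, 34255218 to 34257203, plus strand), stood at 119.5, 123 and 120.2 CPM in ish without Dox and at 0.787, 1.03 and 1.17 with Dox. The ish2 libraries were at 143, 144 and 124 and then at 156, 159 and 166. The fall in ish was 121-fold and the rise in ish2 only 1.17-fold, with no overlap in either construct, so its interaction of 7.14 ± 0.12 (edgeR adjusted p = 1.39e-19) rested almost wholly on ish.

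CXCL8 was similar, falling in ish from 14.7 to 16.99 CPM to 0.532 to 1.08. Its ish2 levels were 12.2 to 14.1 and then 11.7 to 14.4, an effect of 0.05 that was not called (edgeR adjusted p = 0.631). CXCL1 and CCL5 moved in both constructs by like amounts. CXCL1 stood at 1.251, 0.766 and 1.02 and then 0.328, 0.233 and 0.154 CPM in ish, and at 1.26, 1.05 and 1.05 and then 5.96, 5.75 and 4.70 in ish2. CCL5, a chemokine for T cells, stood at 6.06, 6.16 and 5.31 and then 0.853, 1.40 and 0.892 in ish. In ish2 it stood at 4.62, 5.44 and 4.45 and then at 23.8, 23.2 and 26.4. ICAM1, an adhesion molecule induced by NF-kB, fell 7.08-fold in ish and rose 2.24-fold in ish2. NFKBIZ, a nuclear regulator of NF-kB, fell 2.17-fold and rose 1.67-fold. The NF-kB subunits were divided: RELA had effects of 0.09 and 0.09 and NFKB1 0.27 and 0.18, and neither was called in the interaction. NFKB2 fell in ish and rose in ish2 (-0.25 and 0.40), REL rose in both (0.15 and 0.42), and RELB was called in ish2 only (0.11 and 1.20). NFKBIA, the inhibitor that NF-kB induces, was the member with the ish2 effect below (0.35 and -0.11).

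Almost all ERK output genes had the ish2 effect above the ish effect. Of 32 tested, it was above at 31 (96.9%, beside 37.4% of all tested genes). It was below at 1 (3.12%, beside 35.2%), which was DUSP4 (0.74 and 0.22). Of the 32, 21 (65.6%, beside 14.1%) fell in ish and rose in ish2. Another 7 moved the same way in both and further in ish, and 3 were called in ish only. The median effect was -1.50 in ish and 0.48 in ish2. EMP1 (chromosome 12, 13196716 to 13219939, plus strand) stood at 208, 232 and 218 CPM in ish without Dox and at 16.8, 17.9 and 17.5 with Dox. The ish2 libraries were at 259, 260.3 and 197 and then at 781, 816 and 819. The groups without Dox overlapped between the lines, and those with Dox were apart by 5.53 on the log2 scale. The interaction was 5.41 ± 0.16 (edgeR adjusted p = 1.62e-09), from a 12.6-fold fall and a 3.37-fold rise. ish2 without Dox replicate 3 was the lowest of its group for EMP1, and without it the EMP1 interaction kept its direction and call.

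DUSP6, the phosphatase that ERK induces to restrain itself, stood at 1438, 1390 and 1406 CPM in ish and at 192, 172 and 185 with Dox. Its ish2 levels were 1552, 1576 and 1493 and then 1850, 1836 and 1889, a rise of 1.21-fold that was small beside the 7.70-fold fall in ish. ETV4, an ETS factor downstream of ERK, fell 14.5-fold in ish, from 166 to 168 CPM to 11.2 to 11.97. In ish2 it had an effect of 0.05 that was not called (edgeR adjusted p = 0.176). CCND1, the G1 cyclin that growth factors induce, fell in both constructs (-2.09 and -0.72).

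The list of immediate early genes shares 5 tested members with the ERK list, EGR1 and FOSL1 among them. Of 30 tested, 25 had the ish2 effect above (83.3%, beside 37.4% of all tested genes) and 3 below (10.0%, beside 35.2%). Of the 30, 21 (70.0%, beside 14.1%) fell in ish and rose in ish2 while 1 did the reverse. Without the 5 shared genes, 17 of 25 fell in ish and rose in ish2. EGR1 fell 2.78-fold in ish, from 118 to 125 CPM to 42.2 to 44.4. It rose 1.58-fold in ish2, from 129 to 139.5 to 211 to 216. KLF10, a factor induced by TGF-beta, fell 2.30-fold and rose 2.11-fold. IER5, an early gene of stress and growth signals, fell 2.40-fold and rose 1.53-fold. The 3 members with the ish2 effect below were JUN, JUND and SRF, with interactions of -0.68, -0.91 and -0.29, so the AP-1 subunits were divided: FOS had -1.43 and 0.83, FOSL1 -1.55 and 0.77, and JUN 0.67 and -0.005. The cAMP and CREB list shares 6 tested members with the immediate early list. It had 23 of 28 above (82.1%, beside 37.4% of all tested genes) and 3 below (10.7%, beside 35.2%). Of the 28, 14 fell in ish and rose in ish2, beside 14.1% of all tested genes, and 1 did the reverse. Without the 6 shared genes, 9 of 22 fell in ish and rose in ish2 and 1 did the reverse. BDNF, a neurotrophin, fell 2.97-fold and rose 1.43-fold, and PDE4D, a cAMP phosphodiesterase, fell 3.38-fold and rose 1.12-fold. NPTX2, a neuronal pentraxin, fell in both (-2.24 and -0.32).

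Interferon stimulated genes differed in the same direction. Of 57 tested, 48 had the ish2 effect above (84.2%, beside 37.4% of all tested genes) and 5 below (8.77%, beside 35.2%). Of the 57, 32 (56.1%, beside 14.1%) fell in ish and rose in ish2 while 1, STAT2, did the reverse. IFIT2, an antiviral RNA-binding protein, stood at 114, 118 and 117 CPM in ish and at 33.7, 34.6 and 35.9 with Dox. Levels in ish2 were 113, 110.5 and 102 and then 278, 284.9 and 304. It was lower in every ish library with Dox and higher in every ish2 library with Dox than in any without, and the interaction was 3.16 ± 0.05 (edgeR adjusted p = 2.47e-29). IFIT3, its partner, fell 3.33-fold and rose 2.34-fold, and IFIT1 fell 5.00-fold and rose 1.46-fold. IFITM2, a membrane protein that blocks viral entry, fell 5.32-fold and rose 1.21-fold.

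**Figure D4:**
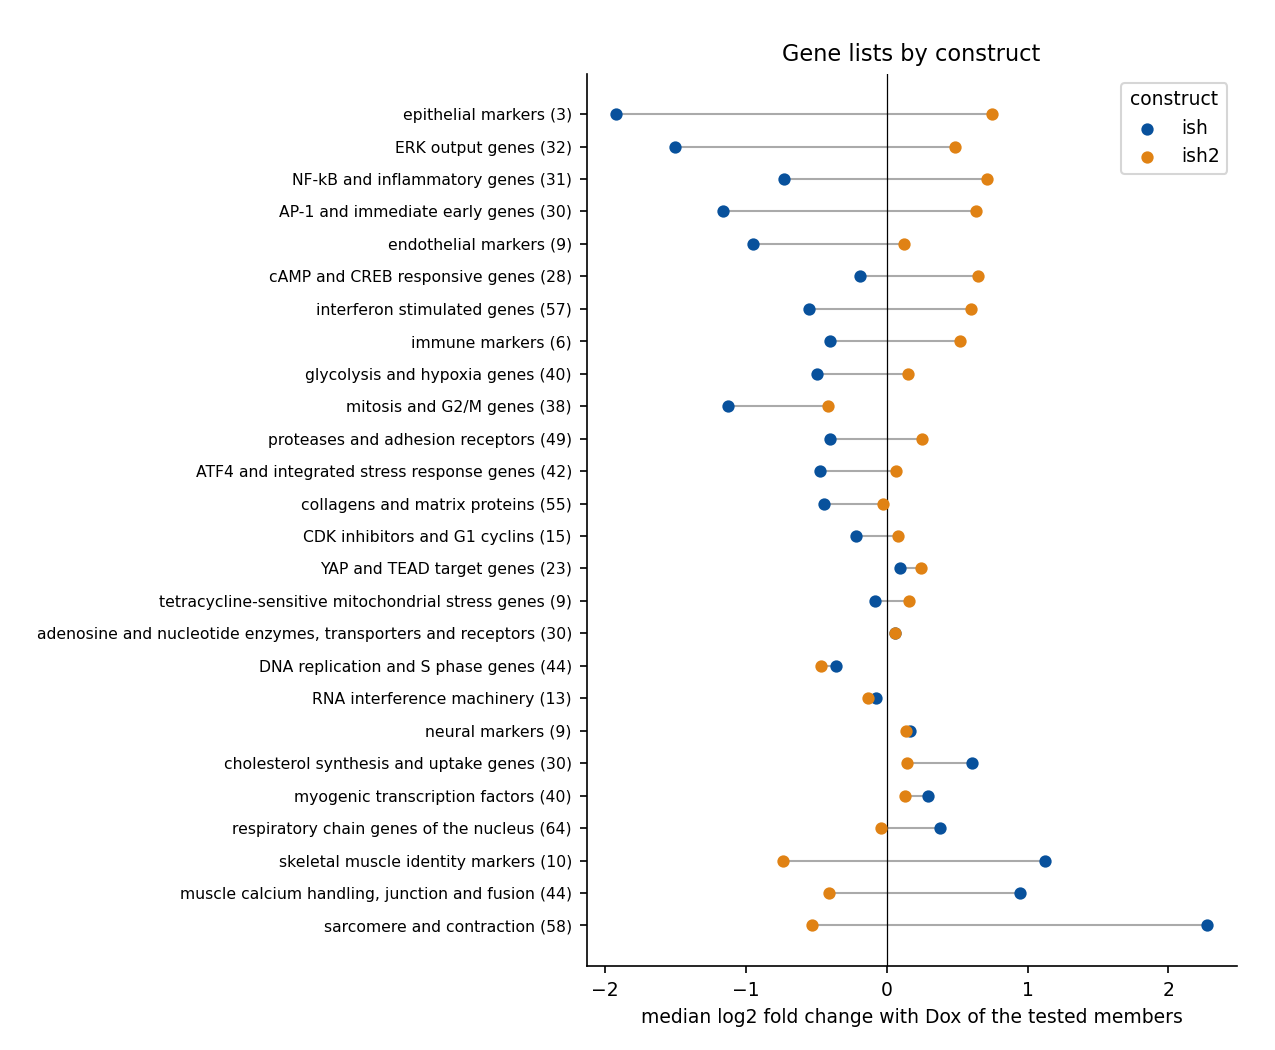
Median log2 fold change with Dox of the tested members of each of 26 gene lists, blue for ish and orange for ish2, with the number of tested members in brackets. The lists are ordered by their median interaction, from 2.76 for the 3 epithelial markers at the top to -2.80 for sarcomere and contraction genes at the bottom; in the lists near the middle the 2 medians lie close to each other.

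Genes of the cell surface and matrix were mixed, with the urokinase system at the extreme. PLAU, a protease that activates plasminogen and is known as urokinase, stood at 255.1, 257 and 257 and then 43.6, 42.8 and 42.8 CPM in ish, and at 402, 389 and 364 and then 1498, 1492 and 1511 in ish2. Its lowest group was ish with Dox and its highest ish2 with Dox, with no overlap between the 4 groups. The interaction was 4.54 ± 0.04 (edgeR adjusted p = 3.75e-41). PLAUR, the urokinase receptor, fell 3.49-fold and rose 3.56-fold. The other activator, PLAT, fell 8.32-fold in ish, from 409 to 431 CPM to 48.5 to 52.9, and rose only 1.14-fold in ish2. A second gene, C10orf55, overlaps PLAU and was in the same 2-fold class. How reads in the overlap were assigned is not known.

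Over the whole list of proteases and adhesion receptors, 32 of 49 had the ish2 effect above (65.3%, beside 37.4%) and 10 below (20.4%, beside 35.2%). Of the 49, 17 (34.7%, beside 14.1%) fell in ish and rose in ish2. Of 55 collagens and matrix proteins, 29 were above (52.7%, beside 37.4% of all tested genes) and 17 below (30.9%, beside 35.2%). In that list 14 (25.5%, beside 14.1%) fell in ish and rose in ish2 and 9 (16.4%, beside 12%) did the reverse. COL4A1 and COL4A2, the chains of basement membrane collagen, fell 4.43-fold and 3.66-fold in ish. In ish2 COL4A1 rose 1.05-fold, and COL4A2 had an effect of 0.04 that was not called (edgeR adjusted p = 0.233). LAMC1, the laminin gamma chain beside them, fell 5.34-fold and rose 1.11-fold. TGFBI, a matrix protein induced by TGF-beta, fell 2.95-fold and rose 2.40-fold. COL5A3, a chain of type V collagen, did the reverse, with 1.00 and -1.31. ADAM19, a membrane protease, rose in both constructs, 16.4-fold in ish and 1.11-fold in ish2.

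Other genes that fell in ish and rose in ish2 encode receptors and secreted proteins. SEMA7A, a membrane-anchored semaphorin, stood at 16.3, 16.2 and 15.7 and then 4.92, 3.49 and 4.52 CPM in ish. Its ish2 levels were 20.8, 21.6 and 16.9 and then 158, 160.5 and 157, so here the rise in ish2 (8.03-fold) was larger than the fall in ish (3.72-fold). MME, the peptidase neprilysin, fell 3.87-fold and rose 4.69-fold, and FGF1, a fibroblast growth factor, fell 4.88-fold and rose 5.09-fold. SALL1, a zinc-finger factor of development, went from 2.48 to 2.87 CPM to 0.465 to 0.677 in ish and from 1.54 to 2.53 to 9.73 to 10.8 in ish2. C3AR1, the receptor of complement C3a, rose in ish2 from 1.92 to 2.21 CPM to 14.9 to 16.4. In ish it stood at 1.49 to 1.88 without Dox and had at most 2 reads per library with Dox, so no fold is given there. FRG2 belongs to a family of near-identical copies, and its values are uncertain.

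Of 23 YAP and TEAD target genes, 13 were above (56.5%, beside 37.4%) and 9 below (39.1%, beside 35.2%), with a median interaction of 0.15. CTGF fell 4.50-fold in ish and rose 2.00-fold in ish2, and CRIM1, a membrane protein that binds BMPs, fell 2.90-fold and rose 1.57-fold. ARHGEF17, a guanine nucleotide exchange factor, did the reverse by small amounts (0.33 and -0.69).

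Metabolic lists were divided. Of 40 glycolysis and hypoxia genes, 29 had the ish2 effect above (72.5%, beside 37.4% of all tested genes) and 7 below (17.5%, beside 35.2%). Of the 40, 15 (37.5%, beside 14.1%) fell in ish and rose in ish2 while none did the reverse. SLC2A3, a glucose transporter, stood at 175, 180.1 and 179.6 and then 53.4, 53.1 and 53.5 CPM in ish. Levels in ish2 were 183, 173 and 164 and then 552, 545 and 567. The 2 changes were of nearly equal size (-1.74 and 1.68), and the interaction was 3.42 ± 0.04 (edgeR adjusted p = 7.31e-37). PFKFB3, which makes an activator of glycolysis, fell 4.36-fold and rose 2.56-fold. ADM, the hypoxia-induced peptide adrenomedullin, fell 4.27-fold and rose 1.45-fold. Of the core enzymes ALDOA and PGAM1 were not called in the interaction, and PKM, GAPDH and LDHA had interactions of 0.13, 0.41 and 0.66.

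Nuclear genes of the respiratory chain went the other way. Of 64 tested, 51 had the ish2 effect below (79.7%, beside 35.2% of all tested genes) and 8 above (12.5%, beside 37.4%). Of the 64, 23 (35.9%, beside 12%) rose in ish and fell in ish2 while 1 did the reverse. NDUFA10, a subunit of complex I, stood at 147, 149 and 149 and then 246, 246 and 249.7 CPM in ish. The ish2 libraries were at 138.6, 139 and 138.8 and then at 93.8, 91.2 and 90.6, and the interaction was -1.34 ± 0.04 (edgeR adjusted p = 3.46e-27). UQCRC1, a core protein of complex III, had effects of 0.46 and -0.42. COX6B1, a subunit of complex IV, fell in both (-1.15 and -0.18).

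Of 30 cholesterol genes, 4 were above (13.3%, beside 37.4% of all tested genes) and 20 below (66.7%, beside 35.2%). Of the 30, 2 (6.67%, beside 12%), FDPS and FDFT1, rose in ish and fell in ish2. FDPS, which makes farnesyl pyrophosphate, had 0.37 and -0.31, and FDFT1, the squalene synthase, 0.66 and -0.13. MVD and LSS, enzymes before and after these steps, rose 2.61-fold and 2.36-fold in ish and were not called in ish2. MSMO1, a later enzyme, was the reverse, with 0.01 in ish, not called, and a 1.89-fold rise in ish2. Of 42 integrated stress response genes, 24 were above (57.1%, beside 37.4%) and 7 below (16.7%, beside 35.2%). Of the 42, 11 (26.2%, beside 14.1%) fell in ish and rose in ish2. DDIT4, an inhibitor of mTOR, fell 4.30-fold and rose 1.06-fold, while ATF4 itself rose 1.23-fold in ish and fell 1.14-fold in ish2.

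No gene of the mitosis list moved oppositely, beside 26.1% of all tested genes. The 38 genes of mitosis and G2/M all fell in ish (beside 39.5%), and 36 did so in ish2 (beside 31.1%). The ish2 effect was above, that is less negative, at 36 of the 38 (94.7%, beside 37.4%). It was below at 1 (2.63%, beside 35.2%), and the median interaction was 0.70. CCNB2, a mitotic cyclin, went from 53.2 to 54.0 CPM to 15.1 to 15.8 in ish and from 53.4 to 55.5 to 44.8 to 49.7 in ish2. TOP2A, the topoisomerase of dividing cells, fell in both, by 2.87-fold and 1.53-fold. MKI67, which encodes Ki-67, was the 1 below: its falls were 1.90-fold in ish and 2.24-fold in ish2, an interaction of -0.24 ± 0.08 (edgeR adjusted p = 0.0222). Of 44 replication and S phase genes, 12 were above (27.3%, beside 37.4% of all tested genes) and 17 below (38.6%, beside 35.2%). Only 2 of the 44 (4.55%, beside 12%) went up in ish and down in ish2. These were E2F1 (0.26 and -0.52) and E2F2 (0.20 and -1.32), transcription factors of the G1 to S step.

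Cell-cycle inhibitors were divided. CDKN1A, which encodes p21, rose in both constructs, 4.32-fold in ish and 1.43-fold in ish2, an interaction of -1.60 ± 0.10. CDKN2C rose 1.41-fold in ish and fell 1.57-fold in ish2. CDKN2A and CDKN2D did the reverse, with falls of 1.84-fold and 2.83-fold and rises of 1.16-fold and 1.24-fold. Of the 15 CDK inhibitors and G1 cyclins, 6 (40.0%, beside 14.1% of all tested genes) fell in ish and rose in ish2, and 1 (6.67%, beside 12%) did the opposite.

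Genes of adenosine and nucleotide handling, the pathway of CD73, were called about as often as tested genes in general. Of 51 listed genes 30 were tested. The ish2 effect was above at 10 (33.3%, beside 37.4% of all tested genes) and below at 13 (43.3%, beside 35.2%). A fall in ish with a rise in ish2 was seen at 3 (10.0%, beside 14.1%), and 3 did the reverse (10.0%, beside 12%). PNP, which splits inosine and guanosine, stood at 22.3, 24.1 and 22.9 and then 8.89, 9.70 and 9.29 CPM in ish. In ish2 it stood at 26.1, 26.0 and 27.8 and then at 43.0, 41.2 and 39.9. ADORA1, the A1 adenosine receptor, stood at 43.1, 39.2 and 42.3 and then 89.8, 88.3 and 87.6 in ish. Levels in ish2 were 37.1, 36.3 and 43.9 and then 23.1, 21.9 and 22.3. Their interactions were 1.95 ± 0.07 and -1.90 ± 0.07, with no overlap between Dox and no Dox in either construct. NT5C2, a cytosolic nucleotidase, had 0.68 and -0.11. ADORA2B, the receptor for high adenosine levels, had -0.11 and -0.16 and was not called in the interaction.

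The 10 named genes with the largest interactions among those that moved the same way were all changed more in ish. UNC5D, a netrin receptor, fell from 34.0, 38.8 and 38.1 to 1.05, 1.03 and 1.66 CPM in ish. In ish2 it fell from 24.6, 24.8 and 22.02 to 20.4, 18.9 and 21.5. TLL2, a metalloprotease related to tolloid, fell 11.7-fold and 1.28-fold, and AGTR2, the type 2 angiotensin receptor, 7.69-fold and 1.07-fold. BEST3, a chloride channel, rose 25.02-fold and 1.59-fold, and APOBEC2, a muscle member of the APOBEC family, rose 19.3-fold and 1.33-fold. RXRG, a retinoid receptor, rose in ish from a low level.

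Lists that bear on the system itself were also measured. Of 13 genes of the RNA interference machinery, 7 had the ish2 effect below (53.8%, beside 35.2% of all tested genes) and 3 above (23.1%, beside 37.4%). DICER1, which cuts hairpins to their mature form, stood at 165, 173 and 165 and then 66.8, 64.1 and 68.3 CPM in ish. The ish2 libraries were at 166, 157 and 161 and then at 161, 166 and 173, an effect that was not called (edgeR adjusted p = 0.186), and the interaction was 1.38 ± 0.04. Of 9 tested genes of mitochondrial stress that tetracyclines can induce, 3 (33.3%, beside 14.1%) fell in ish and rose in ish2 (CLPP, YME1L1 and GDF15) and none did the reverse. The same dose of Dox was given to both lines. The part of these genes in the other results was not tested.

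Markers of other cell types were summed to see whether they moved with the results. The 11 skeletal muscle identity genes summed to 1541 to 1621 CPM in ish without Dox and to 3421 to 3608 with Dox, and in ish2 to 1491 to 1542 and then 1323 to 1351, and MYF5 was near 0 (under 0.1 CPM) in every group. Of 10 tested, 5 rose in ish and fell in ish2, beside 12% of all tested genes, and none did the reverse. The 15 endothelial markers summed to 190.5 to 197 and then 100.7 to 100.9 CPM in ish, and to 183 to 202 and then 205 to 214 in ish2. The defining genes KDR and EMCN were near 0 in every group, and 7 of the 15 were under 0.1 CPM in ish with Dox. Of 9 tested, 4 (44.4%, beside 14.1%) fell in ish and rose in ish2. The 15 immune markers summed to 5.20 to 5.59 and then 3.89 to 4.99 CPM in ish, and to 5.02 to 6.21 and then 7.16 to 7.57 in ish2, and 8 of them, among them PTPRC and CD3E, were near 0 in every group. The 12 epithelial markers summed to 33.0 to 34.8 and then 7.48 to 9.44 in ish, and to 38.4 to 43.9 and then 62.0 to 62.7 in ish2. KRT18, a keratin of simple epithelia, made up most of it (55.0 ± 0.65 CPM, SD, n = 3, in ish2 with Dox), and 6 of the 12, such as KRT5 and GRHL2, were near 0 in every group. The 18 neural markers summed to 424 to 426 and then 627 to 653 in ish and to 477 to 498 and then 491 to 515 in ish2. The part of such cells in the results was not tested.

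The promoters were searched for 5 motifs in the 300 bases from 250 before to 50 after the start site, on both strands: CAGCTG, a MEF2 site, GGNNTTTCC, TGANTCA and TGACGTCA (the CRE bound by CREB). RefSeq promoters were matched for 11618 of the 15206 tested genes. Among genes changed at least 2-fold in both constructs, 66 of the 103 that rose in ish and fell in ish2 had a promoter, and 30 of these (45.5%) held CAGCTG. This compares with 17.5% of the tested genes and 17.7% of all 27305 promoters. Of genes that rose at least 2-fold in ish without being called in the opposite direction in ish2, 26.1% of 570 held it. TNNT2, MYBPH, SEPT4, GADD45G and ATOH8 were among the holders, and MYOG, MYH8 and KCNH2 were not.

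In the reverse class 120 of 181 genes had a promoter. TGANTCA was present in 16 (13.3%), beside 4.70% of tested genes and 7.76% of all promoters. Outside the opposite classes it was in 5.65% of genes that fell and 7.19% of those that rose at least 2-fold in ish, and in 7.53% of genes that rose and 8.80% of those that fell at least 2-fold in ish2. GGNNTTTCC was present in 12 (10.0%), beside 6.41% of tested genes and 6.26% of all promoters, and CAGCTG in 22 (18.3%), beside 17.5%. EMP1, PLAUR and C3AR1 held TGANTCA, and CXCL1, IL6 and ICAM1 held GGNNTTTCC. Of the classes taken without a minimum fold, 20.7% of those that rose in ish and fell in ish2 held CAGCTG and 6.72% of the reverse held TGANTCA. The MEF2 and CRE letters were rare in both 2-fold classes, at 2 and 1 of 66 and at 0 and 3 of 120. Other forms of the MEF2 site were not counted. A match is not a bound site, and a promoter without one says only that these letters are not in this window. CCL2 had no entry in the promoter table used.

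**Figure D5:**
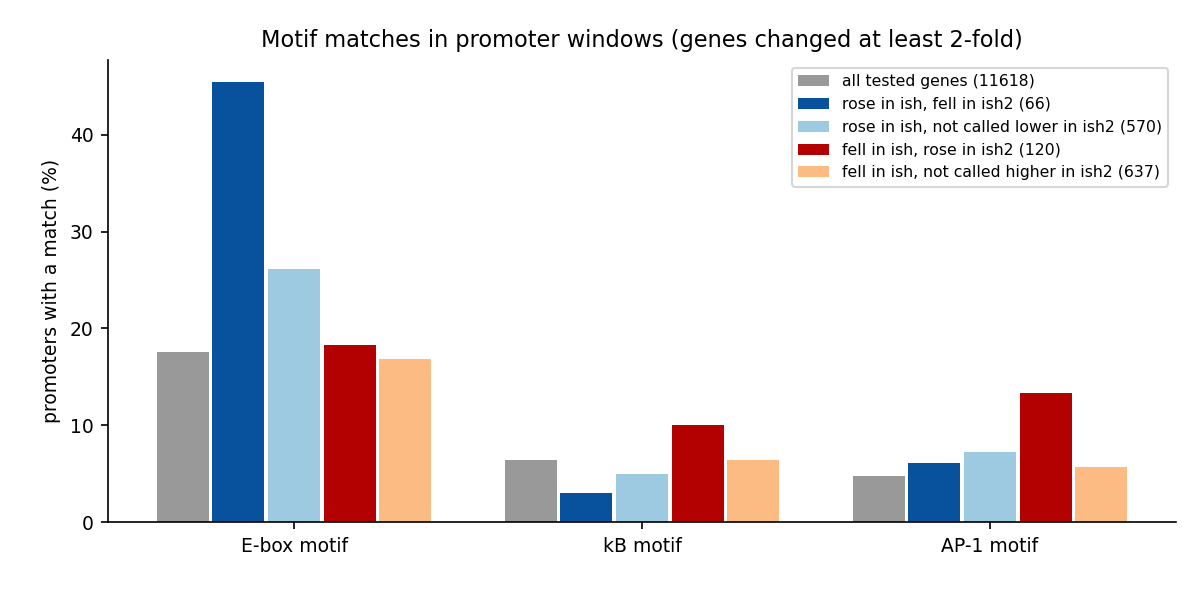
Share of promoter windows with a match to the E-box CAGCTG, the kB motif GGNNTTTCC or the AP-1 motif TGANTCA, for all tested genes and for genes changed at least 2-fold, with the number of promoters in brackets. The E-box bar is highest for genes that rose in ish and fell in ish2 (45.5%) and the AP-1 bar for genes that fell in ish and rose in ish2 (13.3%).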

How the data were processed

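Poly(A) RNA from the 12 libraries was sequenced as paired ends with a stranded kit, per the labels' protocols. The deposited values are raw read counts per gene, which the authors made after trimming with Trim Galore 0.6.4 and aligning with STAR 2.7.3a to GRCh38, per the submitters' processing notes, which also name featureCounts and Subread 1.6.3. The strand setting of the counting is unknown from these sources. The table has columns headed Sh1 and Sh2, which were read as the titles' ish and ish2. Its 5 special rows, which name no gene, stayed out of library sizes and tests. Reads without a feature were 10.759% to 12.843% of all counts in a library, with the special rows included. Those not aligned uniquely were 7.15% to 9.571% on the same base.

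Counts were fitted with edgeR 4.0.16 in R 4.3.3 (TMM scaling, filterByExpr by group, robust quasi-likelihood test, 4 group means, Benjamini-Hochberg threshold 0.05 over all 15206 genes), and the procedure was tested on simulated data. A gene was placed in an opposite class when it was called in both constructs with opposite signs. SEs were computed back from the test statistic. The ± values in log2 are these SEs.

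Genes named were NT5E, EMP1, MYH8, TNNT2, CCL2, MYOG, MYOD1, MEF2C, MYH3, CDKN1A, CXCL8, DUSP6 and MKI67. To these were added the 14 genes per opposite class with the largest smaller change. These 14 were taken only from genes whose libraries with and without Dox did not overlap in either construct. Their lack of overlap was thus a condition of the choice. The 5 largest interactions each way among genes of the same sign were also added. Both sets needed a current or older official symbol and a mean log2 CPM of 1 or more in the highest group. Up to 4 genes per list with the smallest p completed the choice. Some of these genes are not reported here. Any other gene given with values was chosen after its values were seen. The members and lists were chosen with earlier results of these data known. Of 916 list entries, 913 matched a row. GENCODE (GRCh38) gave the gene positions and RefSeq (GRCh38.p14) the promoters, so a gene's start can differ between them. The lists overlap, and a gene in several counts in each.

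The replicate numbers were checked as a pairing: same-numbered libraries with and without Dox had correlations of their deviations between -0.0798 and 0.0295, so the numbers were not treated as pairs. Alternatives were DESeq2 1.42.0, limma-voom (limma 3.58.1), other scalings and filters, a 1.5-fold threshold, each construct fitted alone, a replicate block, and leaving out each library.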

Additional observations from a re-analysis of the deposited data

Results flagged for a closer look

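The difference between the constructs' Dox effects was itself tested for each gene, and these results passed that test or are counts of genes that did (edgeR, adjusted p under 0.05). It was called at 11039 genes. Among them 1831 rose in ish and fell in ish2, 103 of them by at least 2-fold in both, and 2140 fell in ish and rose in ish2, 181 of them by at least 2-fold in both. Of the genes given for this contrast, MYH8 (-5.40) and TNNT2 (-4.92) had the ish2 effect below the ish effect, and EMP1 (5.41) and CCL2 (7.14) above it. For NT5E the interaction was 2.74, with a fall in both constructs.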

How the results depend on the processing

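Of 2855 interaction values of the 136 named genes under 21 settings, 2845 kept their direction and call, 10 lost the call and none reversed. When the difference had to exceed 1.5-fold (glmTreat), 4399 genes were called, 2561 above and 1838 below, and 129 rose in ish and fell in ish2 while 253 did the reverse; ATF4, YME1L1 and MKI67 were among the 7 named genes that lost their call there. With a replicate block within each construct the opposite classes held 1772 and 2093 genes. Leaving out each library gave 1789 to 1837 and 1960 to 2053, and at 2-fold in both 94 to 108 and 167 to 199. DESeq2 gave 1684 and 1872 genes, limma-voom 1816 and 2139. Of the list medians, 18 of 567 moved beyond their spread and none changed sign; keeping genes with at least 1 CPM in 3 libraries moved the sarcomere median to -3.04 and that of calcium, junction and fusion genes to -1.80. With counts this deep, genes with few reads limit what can be said, and folds were withheld there.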
